A study of Homo sapiens with 30 samples.

Results

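The BCL2 family sets whether the outer mitochondrial membrane stays closed or opens to release cytochrome c. BCL2, BCL2L1 (BCL-XL) and MCL1 hold the effectors BAX and BAK1 in check. The BH3-only proteins PMAIP1 (NOXA), BBC3 (PUMA), BCL2L11 (BIM), BIK and BMF bind the protective members or activate the effectors. NOXA binds MCL1 above all, and its own protein is a known substrate of a cullin 5 ligase that works with the NEDD8-conjugating enzyme UBE2F and the RING protein RNF7. Transcription of PMAIP1, BBC3 and BCL2L11 is known to respond to stress factors such as ATF4 or FOXO3, each acting on its own subset.

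The genes described are these 10, and a probe set counted as a member when the array annotation gave it exactly 1 symbol and that symbol was one of the 10. This found 28 of the 54675 probe sets on the array, for 9 of the 10 genes and of 19775 genes measured in all. They were 2 for PMAIP1, 2 for BAX, 1 for BAK1, 4 for BCL2, 4 for BCL2L1, 6 for MCL1, 7 for BCL2L11, 1 for BIK and 1 for BMF. The BBC3 probe set carries several symbols and was not analysed here. Probe sets of 1 gene are not replicates and may measure different transcripts of it, and names ending in _s_at or _x_at mark probes that may also match related transcripts. Each gene is represented by its brightest probe set over all arrays, and the other probe sets are set beside it. Levels are compared between groups only within a probe set. In RefSeq's GRCh38.p14 the genes lie at chr18:59899996-59904305 (PMAIP1), chr19:48954875-48961798 (BAX), chr6:33572552-33580276 (BAK1), chr18:63123346-63320090 (BCL2), chr20:31664452-31723963 (BCL2L1), chr1:150574558-150579610 (MCL1), chr2:111120914-111168445 (BCL2L11), chr22:43110750-43129712 (BIK) and chr15:40087890-40108879 (BMF).

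The cells were A375, an established human melanoma line with an activating BRAF mutation. They were incubated with 650 nM MLN4924 (pevonedistat), an inhibitor of the NEDD8-activating enzyme that cullin-RING ligases depend on, for 1, 2, 4, 8 or 24 h, or with 0.065% DMSO for the same times. Each of the 10 groups had 3 arrays, DMSO included at every time. Nothing in the labels says whether the 3 came from separate cultures, and the spread that the tests use may therefore be only technical.

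The melanocyte lineage genes SOX10 and MITF were well above the median signal of 36.58 on every array, at 305 to 1126 for SOX10 and 222 to 382 for MITF. The pigment genes PMEL, MLANA and TYRP1 averaged 24.4, 17.2 and 16.5, below that median. Of the markers of other cell types, EPCAM, CDH1, PTPRC, VWF and CDH5 averaged 6.92 to 10.9. Others were brighter: over all arrays the 5 epithelial markers summed to 2139 to 4929 per array. The 5 fibroblast markers summed to 227 to 407 and the 4 blood markers to 229 to 612. The signals of the 7 measured melanocyte markers were summed on each array. It was 785 to 945 in the MLN4924 arrays of 8 and 24 h, against 1730 to 2450 in the DMSO arrays of those times. For 5 epithelial markers, mainly KRT18, it was 4655 to 4929 at 24 h with MLN4924, against 2139 to 2250 with DMSO. At 24 h the 5 fibroblast markers summed to 259 to 298 with MLN4924, against 362 to 407 with DMSO, and the 4 blood markers to 229 to 295 with MLN4924, against 550 to 612 with DMSO. The 3 endothelial markers summed to 97.8 to 155 with MLN4924, against 128 to 134 with DMSO. At 24 h with MLN4924, SOX10, S100B, LUM, LYZ and KRT14 were called lower and KRT18 and CDH5 higher, and their part in the results below was not tested.

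Signals below are quantile-normalized array signals, and log2 changes are MLN4924 minus DMSO differences of mean log2(signal + 32), with the SE and the adjusted p from limma and n = 3 arrays per group. The added 32 understates the changes of dim probe sets. A probe set was called at a Benjamini-Hochberg adjusted p under 0.05 over all 54675 probe sets. A level on these arrays is an amount relative to the other transcripts, so fewer cells and less RNA per cell cannot be told apart.

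The 250 bases before the start of PMAIP1 and BAX are shown because both pro-apoptotic genes were called higher at 24 h and their windows hold the motif matches described here. Of the 10 genes, 8 had a promoter window in the RefSeq table of build GRCh38.p14, which reaches 50 bases past the start. On both strands 6 motifs were searched: TGACGTCA, TGACGT (the core of the cAMP response element), TGATGNAA (an ATF4 and C/EBP element), TGACNNNGC (the antioxidant response element), the E-box CACGTG and the GC box GGGCGG. Capitals mark TGACGT and GGGCGG in PMAIP1, and CACGTG in BAX.
PMAIP1, chr18:59899746-59899995, plus strand: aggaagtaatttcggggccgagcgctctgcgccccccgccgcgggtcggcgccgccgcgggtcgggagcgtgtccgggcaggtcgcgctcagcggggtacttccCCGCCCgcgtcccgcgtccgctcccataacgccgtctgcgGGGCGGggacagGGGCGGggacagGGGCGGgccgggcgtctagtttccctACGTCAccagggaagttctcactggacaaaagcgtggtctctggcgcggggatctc
BAX, chr19:48954625-48954874, plus strand: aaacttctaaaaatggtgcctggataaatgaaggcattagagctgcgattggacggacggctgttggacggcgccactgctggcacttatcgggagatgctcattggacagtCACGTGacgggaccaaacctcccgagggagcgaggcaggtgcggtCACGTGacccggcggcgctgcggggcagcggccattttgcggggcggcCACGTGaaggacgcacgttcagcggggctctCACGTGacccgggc

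PMAIP1 was the single member window with TGACGT, on the minus strand, a motif held by 7.98% of the 35116 windows of the same length. The E-box CACGTG matched in BBC3 and BAX, and in 7.26% of all windows. BAX had 4 CACGTG matches, and 5 of the 35116 windows (0.0142%), BAX included, had 4 or more. That cutoff was taken from BAX itself. The TGACNNNGC match in BAX overlaps one of these E-boxes and BCL2L1 also matched TGACNNNGC, as did 13.3% of all windows. GC boxes occurred in 6 of the 8 member genes with a window and in 45% of all windows, and neither TGACGTCA nor TGATGNAA matched a member. A match is only a description of the letters.

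PMAIP1, the NOXA gene, rose with MLN4924 at 2, 4, 8 and 24 h, by 0.87, 1.09, 1.20 and 1.80 on the log2 scale (SE 0.07 at each time). At 1 h its signal (probe set 204285_s_at) was 1201, 1177 and 1260 in MLN4924 arrays, against 993, 977 and 959 in DMSO arrays. These groups did not overlap, but the log2 change of 0.30 was not called (adjusted p = 0.277). At 2 h the signal was 1687, 1547 and 1723 with MLN4924, against 936, 778 and 963 with DMSO (adjusted p = 7.84e-08). At 4 h it was 1773, 1736 and 1674 with MLN4924, against 848, 800 and 743 with DMSO (adjusted p = 2.85e-10). The treated arrays were clear of the DMSO arrays at both times. At 8 h the signal was 1914, 2071 and 1952 with MLN4924, against 877, 828 and 830 with DMSO (adjusted p = 1.35e-11). At 24 h it was 2058, 2062 and 2104 with MLN4924, against 547, 578 and 598 with DMSO (adjusted p = 6.74e-16), a ratio of mean signals of 3.61.

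**Figure D1:**
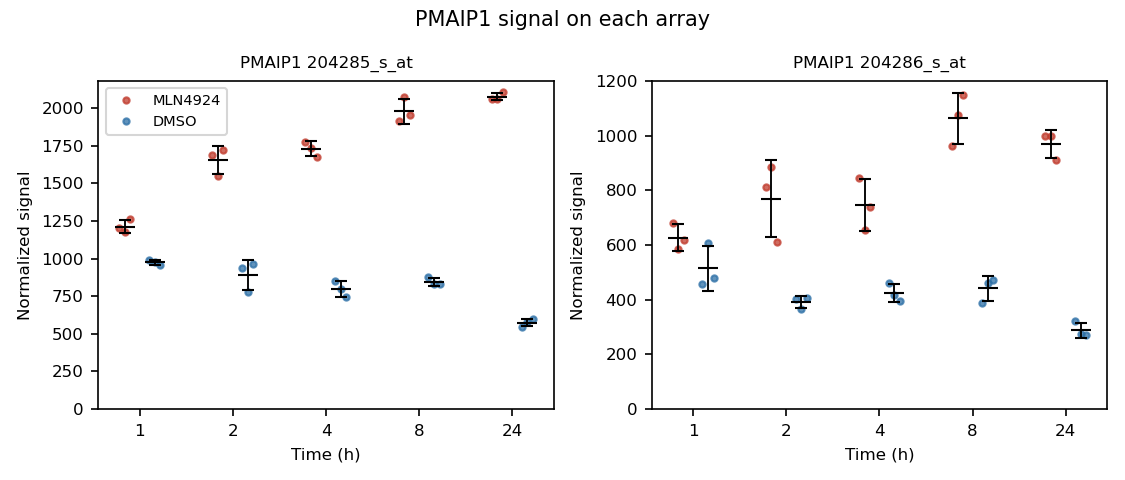
PMAIP1 normalized signal (y axis) by hours of treatment (x axis) for both probe sets, 1 point per array, with the mean and SD of the 3 arrays in black. MLN4924 arrays of 204285_s_at lie above every DMSO array at all 5 times, and the DMSO arrays are lowest at 24 h.

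The gap at 24 h had 2 sides. PMAIP1 in DMSO cultures was lower at 24 h than at 1 h by a log2 change of -0.73 (SE 0.07, adjusted p = 6.56e-08), while the treated signal at 24 h was the highest mean of the series. Against the 15 DMSO arrays of all times, which ran between 547 and 993 in 204285_s_at, its 3 treated arrays lay above the whole range at every time. In 204286_s_at they did not at 1 h, where the lowest treated array was 585 and the highest DMSO array 607. Set against the mean of all 5 DMSO groups, a comparison chosen after seeing the data, the log2 change of PMAIP1 at 24 h was 1.33 (adjusted p = 8.17e-16). The effect itself changed between times: it was larger at 2 h than at 1 h by 0.57 (SE 0.10, adjusted p = 0.0168) and larger at 24 h than at 8 h by 0.60 (SE 0.10, adjusted p = 8.56e-05). The other PMAIP1 probe set, 204286_s_at, was called for neither step, with 0.63 (adjusted p = 0.333) for the first and 0.44 (adjusted p = 0.111) for the second. In 204285_s_at the call of the first step was lost without DMSO 1 h replicate 1 or 2, MLN4924 1 h replicate 2 or MLN4924 2 h replicate 3. The 2 h to 4 h and 4 h to 8 h steps were 0.22 (95% interval 0.0182 to 0.417) and 0.11 (95% interval -0.09 to 0.309) and were not called.

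The 204286_s_at probe set had a Pearson correlation of 0.983 with 204285_s_at over the 10 group means, which come from the same arrays. Its treated mean was highest at 8 h (1063) and was 971 at 24 h, and its step from 2 h to 4 h was -0.14 (not called). Its log2 changes were 0.28, 0.91, 0.77, 1.21 and 1.65 at 1, 2, 4, 8 and 24 h (SE 0.12), called at the last 4 times. At 24 h its signal was 1000, 999 and 913 with MLN4924, against 321, 274 and 269 with DMSO, again with no overlap. At 2 h the PMAIP1 result touches a difference in RNA quality: the ACTB 3' to 5' signal ratio averaged 1.286 in MLN4924 arrays and 1.563 in DMSO arrays, highest in DMSO replicates 1 and 2. Leaving out those 2 arrays left only 1 DMSO array at 2 h. The change was then 0.76 in 204285_s_at and 0.86 in 204286_s_at, and no test is given for it. In a fit of only the 6 arrays of 2 h neither was called (adjusted p = 0.322 and 0.381).

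Across the family, the count of called probe sets grew with time. At 1 h, 0 of the 28 were called by limma, where 0.0201% of all probe sets were. Without adjustment 7 had a limma p under 0.05. The share of all probe sets under that p is not given here, so the 7 are not read as a family result. At 2 h the 2 PMAIP1 probe sets were called, beside a background of 0.313%. At 4 h 4 were higher and 1 lower, where 2.05% of all probe sets were called (1.1% higher, 0.944% lower). At 8 h 7 were higher and 1 lower, where 9.74% of all were called (5.11% higher, 4.64% lower). At 24 h 9 were higher and 3 lower, where 24.8% of all were called (12.2% higher, 12.6% lower). The 3 arrays of each group did not overlap for 7, 6, 9, 13 and 14 of the 28 at 1, 2, 4, 8 and 24 h, where this held for 10.3%, 11.9%, 18%, 23.7% and 36.8% of all probe sets. The median log2 change of the 28 was -0.05, 0.00, 0.10, 0.12 and 0.18 at 1, 2, 4, 8 and 24 h, against medians of all probe sets within 0.01 of zero. By representative probe sets, 6 of the 9 genes were called at 24 h, 4 higher and 2 lower, where 32.5% of 19775 genes were called in either direction.

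**Figure D2:**
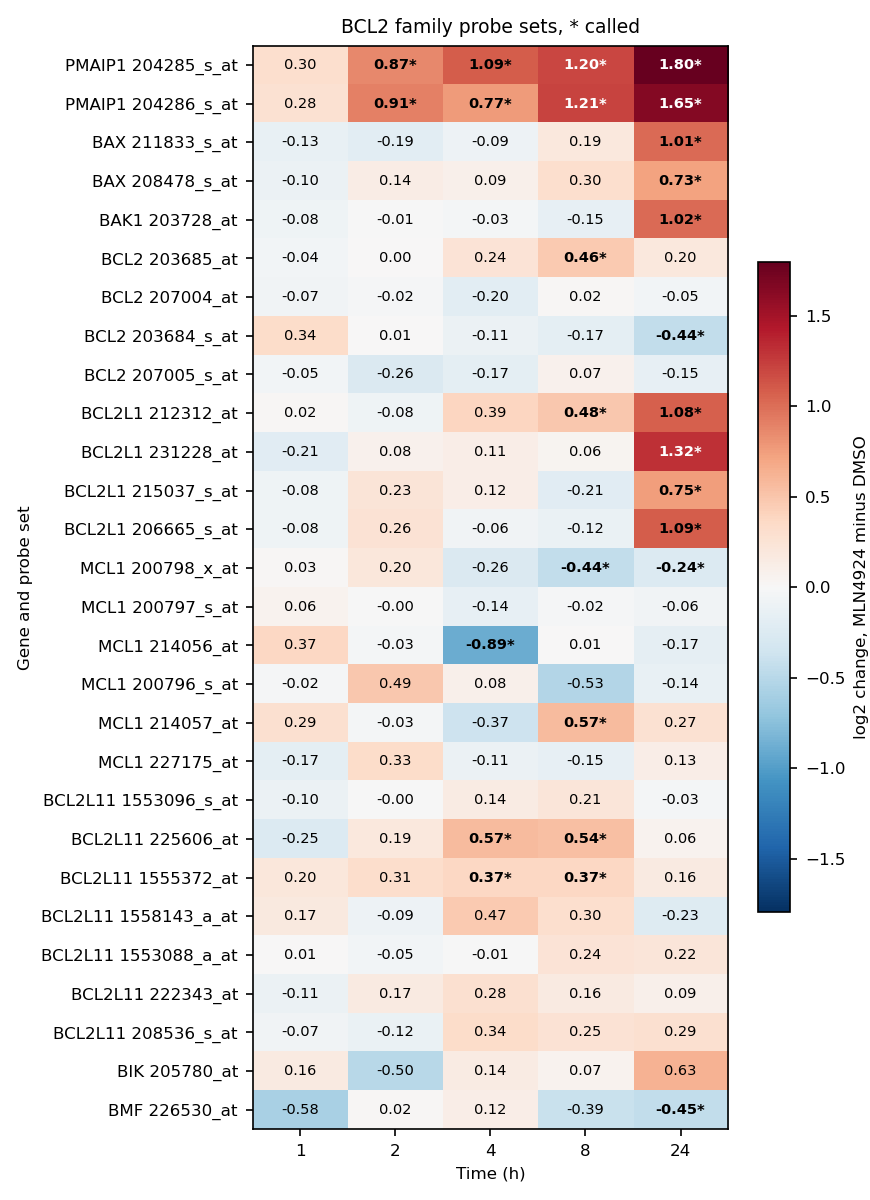
Log2 change, MLN4924 minus DMSO, of each of the 28 probe sets (rows) at each time in hours (columns), written in the cells; bold values with an asterisk were called at an adjusted p under 0.05. PMAIP1 values are positive in every column, and the BAX, BAK1 and BCL2L1 rows turn strongly red in the 24 h column.

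The effectors BAX and BAK1, whose oligomers form the pores of the outer membrane, rose at 24 h. BAX (211833_s_at) had signals of 723, 613 and 743 with MLN4924 at 24 h, against 348, 313 and 319 with DMSO. The treated arrays were clear of all 15 DMSO arrays, of which the brightest reached 465. The log2 change was 1.01 (SE 0.12, adjusted p = 2.91e-07). The second BAX probe set, 208478_s_at, rose by 0.73 (SE 0.14, adjusted p = 0.000217). Between 1 and 8 h neither BAX probe set was called, with log2 changes between -0.19 and 0.30, and at 8 h the 211833_s_at signals of 363, 486 and 477 with MLN4924 overlapped those of 329, 401 and 413 with DMSO. In 208478_s_at the 8 h groups did not overlap, at 416 to 458 with MLN4924 and 279 to 398 with DMSO (change 0.30, adjusted p = 0.211). The BAX effect was larger at 24 h than at 8 h by 0.82 (SE 0.17, adjusted p = 0.00128) in 211833_s_at and by 0.43 (95% interval 0.0241 to 0.831, not called) in 208478_s_at.

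BAK1 (203728_at) had signals of 191, 228 and 211 with MLN4924 at 24 h, against 98, 78.9 and 85.5 with DMSO. The groups were far apart, and the treated arrays exceeded the highest of the 15 DMSO arrays, 130. The log2 change was 1.02 (SE 0.09, adjusted p = 3.08e-09). At the 4 earlier times it lay between -0.15 and -0.01 and was not called. The difference between the 8 h and 24 h effects was 1.17 (SE 0.13, adjusted p = 4.61e-07). In DMSO, BAK1 was lower at 24 h than at 1 h by -0.28 (SE 0.09, adjusted p = 0.0473), and against the mean of all DMSO groups its 24 h change was 0.82 (adjusted p = 1.23e-09).

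BCL2L1, which encodes the protective BCL-XL and by splicing the shorter pro-apoptotic BCL-XS, rose at 24 h in all 4 of its probe sets. The representative 212312_at had signals of 248, 282 and 222 with MLN4924, against 122, 91.9 and 91.6 with DMSO. The treated arrays lay above all 15 DMSO arrays, and the log2 change of BCL2L1 was 1.08 (SE 0.14, adjusted p = 2.01e-06). The others rose by 1.32 (231228_at), 0.75 (215037_s_at) and 1.09 (206665_s_at), with adjusted p between 3.10e-06 and 0.000516. Part of the 231228_at change lay on the DMSO side: its signals at 24 h were 154, 159 and 200 with MLN4924, against 25.5, 43.2 and 91.3 with DMSO, and the DMSO level was lower than at 1 h by -0.97 (SE 0.18, adjusted p = 0.000516). Against the mean of all DMSO groups the 231228_at change at 24 h was 0.63 (adjusted p = 0.00108). For 206665_s_at the signals at 24 h were 36.6, 47.5 and 52.3 with MLN4924, against 5.8, 3.06 and 4.36 with DMSO, all in the dim range of the array. Its log2 change depends on the added constant and was 3.12 with 1 added in place of 32 (adjusted p = 0.00148).

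At 8 h BCL2L1 was called in 212312_at alone, with signals of 160, 173 and 219 with MLN4924, against 147, 102 and 118 with DMSO. The groups just failed to overlap, and the change of 0.48 (SE 0.14, adjusted p = 0.0319) lost its call with the signals as deposited, in a fit of the 6 arrays alone and without any 1 of DMSO replicates 2 and 3 and MLN4924 replicates 2 and 3. The other BCL2L1 probe sets did not follow at 8 h. Their changes were 0.06 in 231228_at, -0.21 in 215037_s_at and -0.12 in 206665_s_at. The effect was larger at 24 h than at 8 h in 231228_at by 1.26 (adjusted p = 0.00112), in 215037_s_at by 0.96 (0.00322) and in 206665_s_at by 1.21 (0.0105). Part of each difference lay on the DMSO side, where mean signals went from 118 to 53.3, 69.4 to 46.1 and 32.8 to 4.41. With MLN4924 they went from 124 to 171, 55.9 to 101 and 26.7 to 45.5. The lowest treated arrays of 24 h in 215037_s_at and 206665_s_at, 75.8 and 36.6, lay below the highest of the 15 DMSO arrays, 86.7 and 49.2. In 212312_at the same difference of 0.60 (95% interval 0.177 to 1.02) was not called (adjusted p = 0.0565). The 4 probe sets correlated with each other at 0.708 to 0.885 over the 10 group means.

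**Figure D3:**
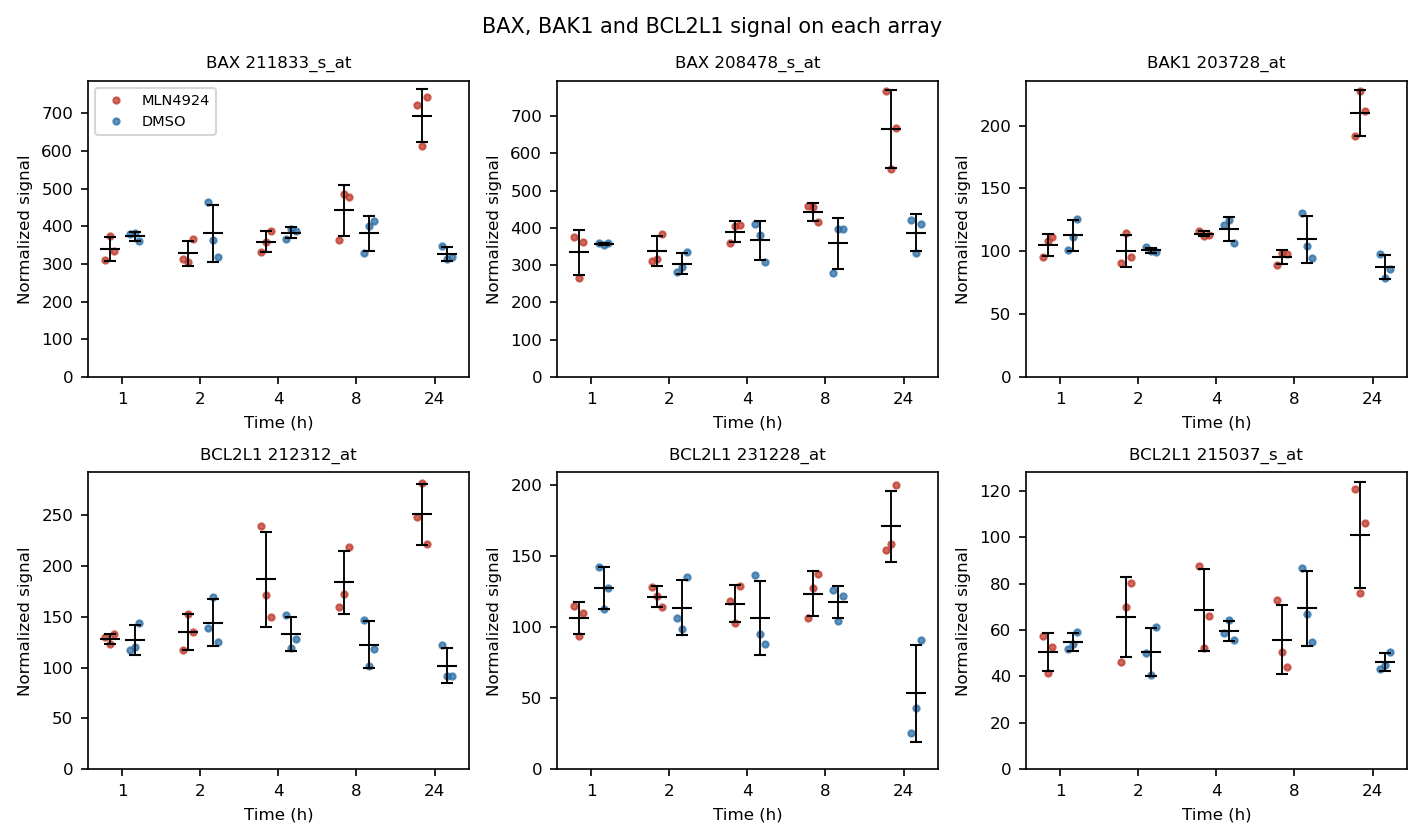
Normalized signal (y axis) by hours of treatment (x axis) for 2 BAX, 1 BAK1 and 3 BCL2L1 probe sets, 1 point per array, with mean and SD of 3 arrays in black. In each panel the MLN4924 arrays lie above the DMSO arrays at 24 h, and DMSO arrays of BCL2L1 231228_at are 25.5 to 91.3 at that time.

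MCL1, the short-lived protective partner of NOXA, did not move as 1 unit. Its representative probe set 200798_x_at was lower with MLN4924 at 8 and 24 h. At 8 h the signals were 2490, 2481 and 2484 with MLN4924, against 3898, 3255 and 3071 with DMSO. The treated arrays lay below all 15 DMSO arrays, and the log2 change was -0.44 (SE 0.08, adjusted p = 0.000554). At 24 h the signals were 2837, 2770 and 2667 with MLN4924, against 3063, 3359 and 3381 with DMSO, a change of -0.24 (SE 0.08, adjusted p = 0.0295). With each array centred on its median in place of quantile normalization, the changes shrank to -0.20 (adjusted p = 0.24) at 8 h and -0.07 (adjusted p = 0.67) at 24 h, and neither was called. The 24 h call was also lost when any 1 of DMSO replicates 2 and 3 or MLN4924 replicates 2 and 3 was left out.

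The second bright MCL1 probe set, 200797_s_at, had log2 changes between -0.14 and 0.06 and was called at no time, with a 95% interval of -0.197 to 0.157 at 8 h. MCL1 214056_at fell at 4 h alone: its signals were 249, 271 and 321 with MLN4924, against 550, 476 and 621 with DMSO, a change of -0.89 (SE 0.14, adjusted p = 0.000364). At 8 h the same probe set had a change of 0.01, and the step between the 4 h and 8 h effects was 0.90 (SE 0.20, adjusted p = 0.0291). That step lost its call without any 1 of 7 arrays (DMSO 4 h replicates 1 and 3, DMSO 8 h replicate 1, MLN4924 4 h replicates 1 and 2 and MLN4924 8 h replicates 2 and 3). MCL1 214057_at was called higher at 8 h, with signals of 196, 197 and 202 with MLN4924, against 83, 148 and 148 with DMSO. Its change of 0.57 (SE 0.16, adjusted p = 0.0227) was 0.35 (adjusted p = 0.2) without DMSO 8 h replicate 1, the lowest array, and the call also ended without any 1 of the 3 MLN4924 arrays. The remaining MCL1 probe sets, 200796_s_at and 227175_at, had changes between -0.53 and 0.49 and were called at no time. Correlations between the 6 MCL1 probe sets over the 10 group means ran between -0.53 and 0.693.

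BCL2, the founding protective member, was higher at 8 h in its representative probe set 203685_at. The signals were 92.1, 123 and 110 with MLN4924, against 65, 69 and 73.9 with DMSO. The treated arrays lay only just above the whole DMSO range of the series, whose highest array was 91.6. The log2 change was 0.46 (SE 0.10, adjusted p = 0.00361). A fit of only those 6 arrays did not call it (adjusted p = 0.0606). By 24 h the change was 0.20 (95% interval -0.0159 to 0.408) and was not called. Another BCL2 probe set, 203684_s_at, was called lower at 24 h, with signals of 24.3, 5.56 and 20.1 with MLN4924, against 30, 37.6 and 31.8 with DMSO (change -0.44, SE 0.15, adjusted p = 0.0275). These signals are near or below the array median, and leaving out MLN4924 replicate 2 (adjusted p = 0.229) or DMSO replicate 2 (0.102) or 3 (0.0545) ended the call. The other BCL2 probe sets, 207004_at and 207005_s_at, had changes between -0.26 and 0.07 and were called at no time.

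BCL2L11, the gene of the BH3-only activator BIM, was called at 4 and 8 h in 2 of its 7 probe sets, but not in its representative. In 225606_at the 4 h signals were 166, 201 and 149 with MLN4924, against 119, 96.8 and 99.3 with DMSO, a change of 0.57 (SE 0.12, adjusted p = 0.0065). The 8 h signals were 164, 155 and 160 with MLN4924, against 92.8, 116 and 91.2 with DMSO, a change of 0.54 (SE 0.12, adjusted p = 0.00303). Both times the groups were apart, and at 24 h they overlapped, with a change of 0.06. At neither of the 2 earlier times were the treated arrays clear of the 15 DMSO arrays of all times, which reached 173. The DMSO mean of 225606_at was 142 at 1 h, 105 at 4 h and 100 at 8 h. The probe set 1555372_at was higher than in DMSO by 0.37 at 4 h and at 8 h (SE 0.09, adjusted p = 0.0196 at 4 h and 0.00589 at 8 h). Its treated arrays, 118 to 144 at 4 h and 112 to 129 at 8 h, also overlapped the 15 DMSO arrays, which reached 131. Its DMSO mean was 122 at 1 h and 83.7 at 8 h, and its treated mean at 8 h was 118.

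The 4 h calls of BCL2L11 rested on single arrays. Without MLN4924 4 h replicate 2, 225606_at had a change of 0.47 (adjusted p = 0.0642) and 1555372_at one of 0.33 (adjusted p = 0.12), which took the count of family calls at 4 h to 3. The 1555372_at call at 4 h also ended without MLN4924 replicate 1 (adjusted p = 0.0938) or DMSO replicate 2 (0.161). The representative 1553096_s_at had changes between -0.10 and 0.21, with a 95% interval of -0.174 to 0.597 at 8 h. That interval includes the sizes of the changes in 225606_at and 1555372_at. The 4 further BCL2L11 probe sets had changes between -0.23 and 0.47 and were called at no time.

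**Figure D4:**
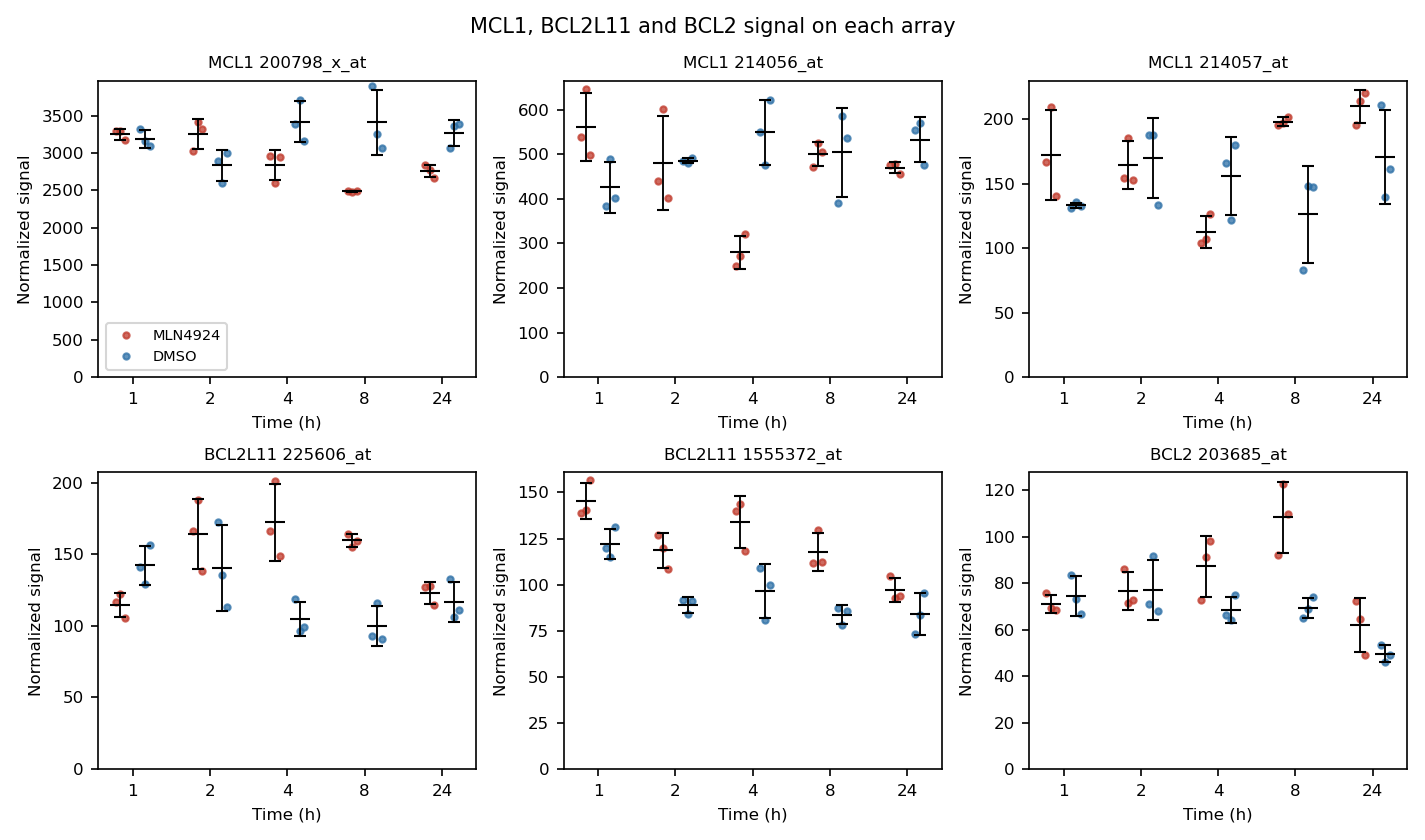
Normalized signal (y axis) by hours of treatment (x axis) for 3 MCL1, 2 BCL2L11 and 1 BCL2 probe sets, 1 point per array, with mean and SD of 3 arrays in black. MCL1 214056_at is low in the MLN4924 arrays of 4 h, and BCL2 203685_at is high in those of 8 h.

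The BH3-only genes BIK and BMF had single, dim probe sets that averaged 30.4 and 24 over all arrays. BIK at 24 h had signals of 41.5, 46.7 and 52 with MLN4924, against 14.4, 14.4 and 29 with DMSO. The groups did not overlap, and the change of 0.63 (95% interval 0.145 to 1.11) just missed the threshold (adjusted p = 0.0525). BMF at 24 h had signals of 19, 6.09 and 13.4 with MLN4924, against 17.4, 39.1 and 31.9 with DMSO. These groups overlapped, although the change of -0.45 (SE 0.16) was called (adjusted p = 0.0385). Leaving out replicate 2 or 3 of either group of 24 h ended the BMF call, with adjusted p between 0.0718 and 0.198. At 1 h the BMF signals of 12.9, 27.7 and 6.7 with MLN4924 lay below those of 34.3, 39.2 and 42 with DMSO, a change of -0.58 that was not called (adjusted p = 0.598).

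Between 8 h and 24 h the MLN4924 effect became larger in 6 of the 28 probe sets and smaller in 0, where 12.4% of all probe sets were called (5.85% larger, 6.58% smaller). The median difference of the 28 was 0.01 for this step and 0.08 for the step from 1 h to 2 h. Of the 28, 1 was called from 1 h to 2 h (PMAIP1), 0 from 2 h to 4 h and 1 from 4 h to 8 h (MCL1 214056_at), with backgrounds of 0.0585%, 0.223% and 0.695%. From 2 h to 4 h 7 had an unadjusted limma p under 0.05, again without a share over all probe sets to set beside it. In DMSO alone, 1 probe set was higher and 6 were lower at 24 h than at 1 h, where 11.9% of all were called (6.19% higher, 5.72% lower). The 6 were both of PMAIP1 and 1 each of BAK1, BCL2, BCL2L1 and BCL2L11, and the count of 7 was 4 without DMSO 24 h replicate 2.

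**Figure D5:**
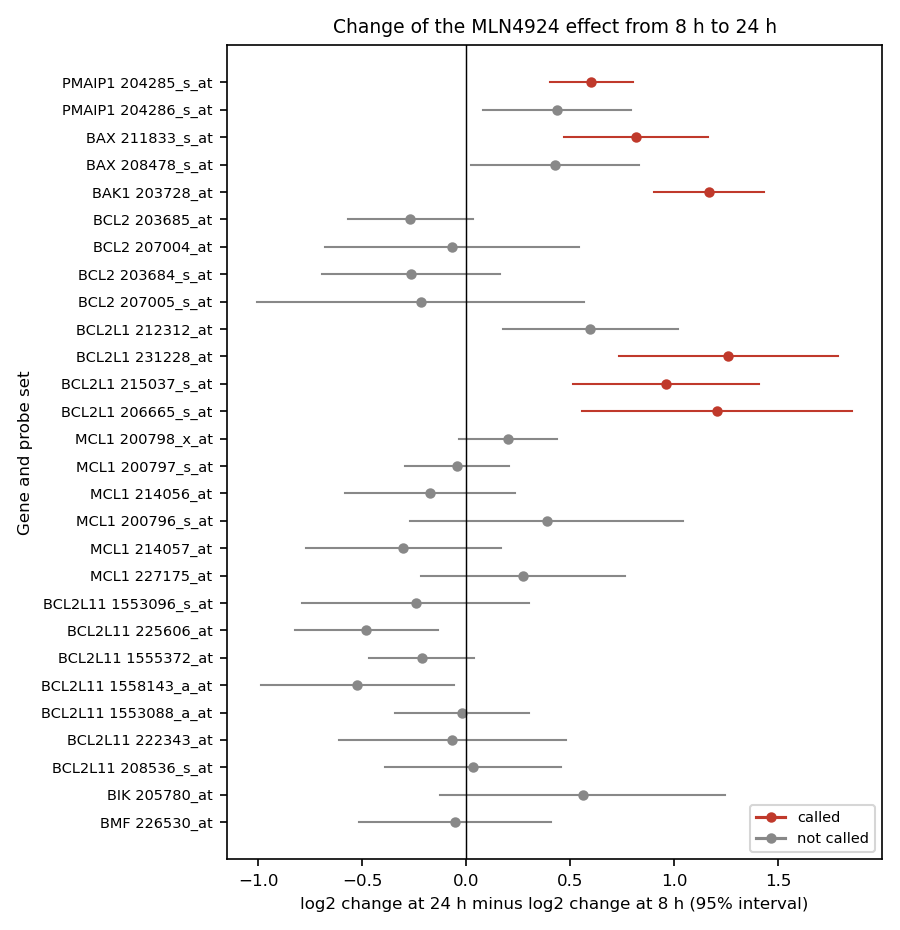
Difference of the MLN4924 effect, 24 h minus 8 h, on the log2 scale (x axis) for each probe set (y axis), with 95% intervals from limma; red marks called differences. Red points lie right of 0 for PMAIP1 204285_s_at, BAX 211833_s_at, BAK1 and 3 BCL2L1 probe sets.

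Measured against all 15 DMSO arrays, 3, 2, 3, 4 and 8 of the 28 probe sets had all 3 treated arrays outside the DMSO range at 1, 2, 4, 8 and 24 h. The share over all probe sets was 0.393%, 0.836%, 3.13%, 6.17% and 15.1%. At 24 h the 8 were both PMAIP1, both BAX, the BAK1 and 2 BCL2L1 probe sets above the range, and BCL2 203684_s_at below it.

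Of the 3 other protective genes measured, 1 was called, at 4 and 8 h. Over all genes, 2.92% were called at 4 h, 13.6% at 8 h and 32.5% at 24 h. BCL2A1, a protective member under MITF and NF-kB control, rose at 4 h by 0.55 (SE 0.08, adjusted p = 0.000281) and at 8 h by 0.31 (SE 0.08, adjusted p = 0.0167), with signals at 4 h of 64.3 ± 4.86 with MLN4924 and 33.9 ± 4.41 with DMSO (SD, n = 3 each). Its probe set is dim, with a mean of 39.3 over all arrays. At 24 h its change was -0.19 and was not called (adjusted p = 0.109). BCL2L2 and BCL2L10 were called at no time. None of the 5 further pro-apoptotic genes BID, BAD, HRK, BOK and BCL2L14 was called at any time by limma, with log2 changes between -0.31 and 0.41. Among 8 related mitochondrial genes 5 rose and 0 fell at 24 h (median 0.34), where 32.5% of all genes were called in either direction and the median of all was 0.00. They included the mitophagy receptors BNIP3 (0.42, adjusted p = 0.00112, and 0.57 at 8 h) and BNIP3L (0.39, 0.00817). The channel gene VDAC2 (0.60, 8.99e-08), whose protein holds BAK1 at the membrane, and BCL2L12 (0.69, 0.000194) also rose. Earlier, 1 of the 8 rose and 1 fell at 4 h, and 3 rose and 1 fell at 8 h. Over all genes, 2.92% and 13.6% were called at those times. The gene that fell was BECN1, with changes of -0.32 at 4 h (adjusted p = 0.011) and -0.35 at 8 h (0.00118). At 24 h its change of -0.18 was not called (adjusted p = 0.0548).

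Downstream of the pore, 3 of 11 measured genes of the apoptosome and executioner step rose at 24 h, 4 fell and 4 were not called, with a median of -0.14 against 0.00 over all genes, of which 32.5% were called. The caspase substrate gene DFFA, the inhibitor of the nuclease DFFB, rose by 0.70 (SE 0.06, adjusted p = 3.64e-09). CASP9, the initiator caspase of the apoptosome, fell by 0.51 (SE 0.11, adjusted p = 0.00103), and CASP6 fell by 0.77 (SE 0.11, adjusted p = 5.68e-06). XIAP, the caspase inhibitor, fell by 0.59 at 8 h (SE 0.12, adjusted p = 0.0024).

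Of the genes whose products turn over BCL2 family proteins, 5 of 15 measured rose and 4 fell at 24 h (median 0.11), against 32.5% called and a median of 0.00 over all genes. UBE2F, the NEDD8 conjugase that serves NOXA degradation, fell by 1.16 (SE 0.08, adjusted p = 2.09e-11), with signals of 347 ± 12.7 with MLN4924 and 815 ± 26.2 with DMSO (SD, n = 3 each). Its ligase partners moved the other way: RNF7 rose by 0.42 (adjusted p = 0.000135) and CUL5 by 0.28 (adjusted p = 0.0084). FBXW7, a substrate receptor that targets MCL1, rose by 0.92 (SE 0.08, adjusted p = 4.17e-09), RBX1, the RING subunit of most cullin ligases, fell by 0.64 (adjusted p = 3.12e-07), and USP9X, a deubiquitinase of MCL1, fell by 0.43 (adjusted p = 4.5e-05).

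Among 15 measured transcription factors known to act on family genes, 2 rose at 2 h, 3 at 4 h, 4 at 8 h and 8 at 24 h, and 0, 0, 2 and 2 fell. Over all genes, 0.455%, 2.92%, 13.6% and 32.5% were called at those times. ATF3 rose by 0.54, 0.89, 2.51 and 4.98 at those times and MYC by 1.14, 1.57, 1.35 and 2.14. At 24 h DDIT3 (CHOP) and JUN each rose by 1.68 (adjusted p = 7.76e-08 and 7.55e-11).

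The 3 members with the widest range of group means were PMAIP1 (1.80 log2 units), BCL2L1 (1.08) and BAK1 (1.02). Over the 10 group means, the genes most like PMAIP1 were CHAC1 (r = 0.976), NMRAL2P (0.97) and ALKBH2 (0.968). Those most like BCL2L1 were CLN8 (0.985), TRIB3 (0.982) and TES (0.978), and those most like BAK1 were LETM2 (0.982), CLTRN (0.98) and GOSR1 (0.968). These are the highest of 12247 candidate genes, and all points share the same arrays.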

How the data were processed

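The deposited table gives 1 intensity per probe set and array, a linear signal and the 2% trimmed mean was 150.02 on every array. Per the submitters' processing notes the software was Affymetrix Expression Console, and neither version nor algorithm is given in the sources used here. Signals were quantile-normalized and transformed as log2(signal + 32). Median array signals as deposited were 32.6 to 44. Symbols came from the platform annotation, updated by gene identifier (41097 probe sets with 1 symbol, 1801 with several, 11777 with none).

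limma 3.58.1 in R 4.3.3 fitted group means on 30 arrays at once, leaving 20 residual degrees of freedom, with eBayes and two-sided tests, adjusted over all probe sets per contrast. The number of arrays limits the precision. The fit was tested on simulated data. No 2 arrays correlated above 0.98979, replicates of 1 group included, so none was taken for a duplicate. The labels give no scan or extraction batch.

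The members and gene lists were chosen with earlier results of these data known. All members are described. List genes named are up to 4 called genes per list with the largest change at 4, 8 or 24 h and separate groups, beside UBE2F, RNF7 and CUL5. Genes set in lists but lacking a probe set with 1 symbol were not analysed here.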

Additional observations from a re-analysis of the deposited data

Results flagged for a closer look

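The difference between the MLN4924 effects at neighbouring times passed the test in 8 cases. For PMAIP1 204285_s_at the effect was larger at 2 h than at 1 h by 0.57 on the log2 scale, and larger at 24 h than at 8 h by 0.60. The other PMAIP1 probe set, 204286_s_at, was called for neither step (adjusted p = 0.333 and 0.111 by limma). The 1 h to 2 h call was also lost with 1 added to the signal, with median centring, with only the arrays compared and without any 1 of 4 single arrays. MCL1 214056_at differed between 4 h and 8 h by 0.90. Between 8 h and 24 h the effect grew by 0.82 in BAX 211833_s_at, by 1.17 in BAK1 203728_at, and by 1.26, 0.96 and 1.21 in BCL2L1 231228_at, 215037_s_at and 206665_s_at. The BCL2L1 probe sets belong to 1 gene and are not independent results, and the DMSO level of 231228_at was itself lower at 24 h than at 1 h. In every 8 h to 24 h case named here the DMSO mean was also lower at 24 h than at 8 h. The causes were not tested.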

How the results depend on the processing

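Of 27 called changes of single probe sets, 428 values were computed under alternative settings: 380 kept direction and call, 48 kept direction without the call and 0 reversed. The PMAIP1, BAX, BAK1 and BCL2L1 calls at 24 h held in every alternative run that included the probe set. The run without _x_at and _s_at probe sets left out all those of PMAIP1 and BAX and some of BCL2L1. It therefore did not test their calls. The counts of called family probe sets moved as follows; fewer probe sets tested accounts for the lower counts with 1 probe set per gene and without _x_at and _s_at probe sets, and the other causes were not tested. At 1 h the count of 0 became 2 when adjusted over the 5 comparisons together and 3 against the mean of all DMSO groups (chosen after seeing the data). At 2 h the count of 2 was 1 with 1 probe set per gene and 0 without _x_at and _s_at probe sets. It was 0 when only the arrays compared were fitted and 4 against all DMSO groups. Under the first 3 of these settings the 4 h count of 5 was 1, 3 and 3 and the 8 h count of 8 was 4, 5 and 3. The 24 h count of 12 was 7 with 1 probe set per gene, where BIK joined, and 4 without _x_at and _s_at probe sets. Leaving out 1 array gave 0 at 1 h, 2 at 2 h, 3 to 5 at 4 h, 6 to 7 at 8 h and 9 to 12 at 24 h. For the step from 1 h to 2 h the count of 1 was 0 with 1 added to the signal and 0 with median centring. It was 0 without _x_at and _s_at probe sets and 0 when only the arrays compared were fitted. It was 2 when adjusted together and 0 to 1 without 1 array (0 without DMSO 1 h replicate 1 or 2, MLN4924 1 h replicate 2 or MLN4924 2 h replicate 3). Counts without DMSO 2 h replicates 1 and 2 are not given, since only 1 DMSO array of 2 h was then left. For 2 h to 4 h the count of 0 was 1 with dim probe sets left out, 2 when adjusted together and 0 to 1 without 1 array. For 4 h to 8 h the count of 1 was 0 with 1 added, 0 with 1 probe set per gene, 0 with only the arrays compared, 2 with median centring, 2 with dim probe sets left out, 2 with an intensity trend, 2 when adjusted together and 0 to 2 without 1 array. For 8 h to 24 h the count of 6 was 2 without _x_at and _s_at probe sets and 6 to 8 without 1 array. For DMSO at 24 h against 1 h the count of 7 was 3 with 1 probe set per gene, 3 without _x_at and _s_at probe sets, 4 with only the arrays compared and 4 to 6 without 1 array. Same-numbered MLN4924 and DMSO arrays did not deviate together (0 of 15 correlations over 0.1), and with the replicate number as a block the counts were 0, 2, 5, 8 and 12 at the 5 times, 7 for 8 h to 24 h and 6 for DMSO. Signals of BIK, BMF and 5 further probe sets averaged below the median of all signals, where changes are compressed.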
